A study of Homo sapiens with 27 samples.

Results

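The MYC, MAX and MXD network was followed through the growth of U2OS cells, a human osteosarcoma line. Its 10 members, MYC, MYCN, MAX, MXD1, MXD3, MXD4, MXI1, MNT, MGA and MLX, were chosen by gene symbol, and each had a row among the 55882 symbols counted in every library. The control line, named WT in the sample titles, carried an empty pLKO.1 vector per the treatment notes, and the MMP2sh1 and MMP2sh2 lines carried the same vector with 1 of 2 shRNAs against MMP-2, a protease that the study describes as cutting the histone H3 tail in these nuclei. All 3 were stable lines made by lentiviral transduction and puromycin selection, so the controls share the vector and the drug, and each hairpin is represented by 1 line. Cells were plated at 30% confluence and poly(A) RNA was taken from subconfluent cells (day −2), confluent cells (day 0) and overconfluent cells (day +2), with 3 libraries for each line and day and 27 in all. The study describes the libraries of a group as independent biological replicates of one stable line.

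As background, MAX is a basic helix-loop-helix leucine zipper protein that most of the network needs as a partner for binding the E-box, of which CACGTG is the best known form. MYC and MAX together switch on genes of growth, above all those for making ribosomes and nucleotides, whereas the MXD proteins, MXI1 and MNT compete for MAX and recruit the SIN3 corepressor to the same sites. MYC is known to fall and MXD proteins to rise as many cells leave the cell cycle, and MYC is often gained or highly expressed in osteosarcoma.

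MXD4, MNT and MLX are shown by sequence because theirs were the 3 promoters among the 14 listed for 9 of the members that held the full E-box, CACGTG. No promoter was listed for MYC, so that of MYC was not examined. The windows were read 5′ to 3′ on the strand of the gene from RefSeq promoters of GRCh38.p14, each covering 250 bases before to 50 after a transcription start, and the capitals mark the E-box.
MXD4, chr4:2262330-2262359, minus strand: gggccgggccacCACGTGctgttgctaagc
MNT, chr17:2401236-2401265, minus strand: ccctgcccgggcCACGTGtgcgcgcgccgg
MLX, chr17:42567038-42567067, plus strand: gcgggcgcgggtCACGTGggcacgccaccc
The first base of the E-box lay at −238 in MXD4, −193 in MNT and −50 in MLX relative to the start. CACGTG reads the same on both strands, and 7.26% of all 35116 promoters in the table held it. It is a match of letters and not a binding site measured in these cells.

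Each library held 33580129 to 59374327 reads assigned to genes. MMP2 RNA was lower in every library of MMP2sh1 and of MMP2sh2 than in any control library of the same day, at 17.3 to 19.8% of the control mean in MMP2sh1 and 48.2 to 62.6% in MMP2sh2. The mesenchymal genes VIM, COL1A1 and SPARC were abundant in all 27 libraries, with medians of 762, 1230 and 1411 CPM (read counts scaled to library size), whereas COL1A2 did not exceed 0.681 CPM and TWIST1 had no read in 25 libraries. Over the control expansion FN1 and RUNX2 rose by 2.07 and 0.66 on the log2 scale and ALPL changed by −1.18. Of 8 markers of other cell types, the T cell, macrophage and liver markers CD3E, CD68 and ALB did not exceed 0.103 CPM. The epithelial EPCAM held 3.13 to 6.72 CPM and the endothelial VWF 1.30 to 4.73 CPM, with reads in all 27 libraries. The leukocyte marker PTPRC reached 1.428 CPM and the epithelial KRT5 1.114 CPM, also with reads in all 27 libraries. The epithelial CDH1 reached 2.501 CPM and had no read in 1 library.

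Levels below are CPM scaled by TMM over all 27 libraries, and a gene was called changed at an adjusted p under 0.05, from the quasi-likelihood F test of edgeR with p-values adjusted by Benjamini and Hochberg's method over all genes tested in that comparison. Values after ± are standard errors for log2 fold changes and standard deviations over 3 libraries for levels. In RNA from whole cultures, fewer cells carrying an RNA and less of that RNA per cell cannot be told apart. Divided by exon length, the mean level over the 27 libraries was highest for MYC at 17.2 CPM per kb. MAX followed at 11.4, MXD3 at 10.7, MLX at 10.5, MXD4 at 8.03 and MXI1 at 7.88 CPM per kb. Over all libraries the range of each of these 6 genes overlapped that of its neighbour in the order. MGA averaged 4.29 and MNT 3.03 CPM per kb, overlapping each other and the lowest MXD4 libraries and lying below every library of the other 5 genes. MYCN averaged 0.831 and MXD1 0.538 CPM per kb, overlapping each other and below all the rest. MYCN and MXD1 were counted from 47 to 179 and 91 to 260 reads per library.

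**Figure D1:**
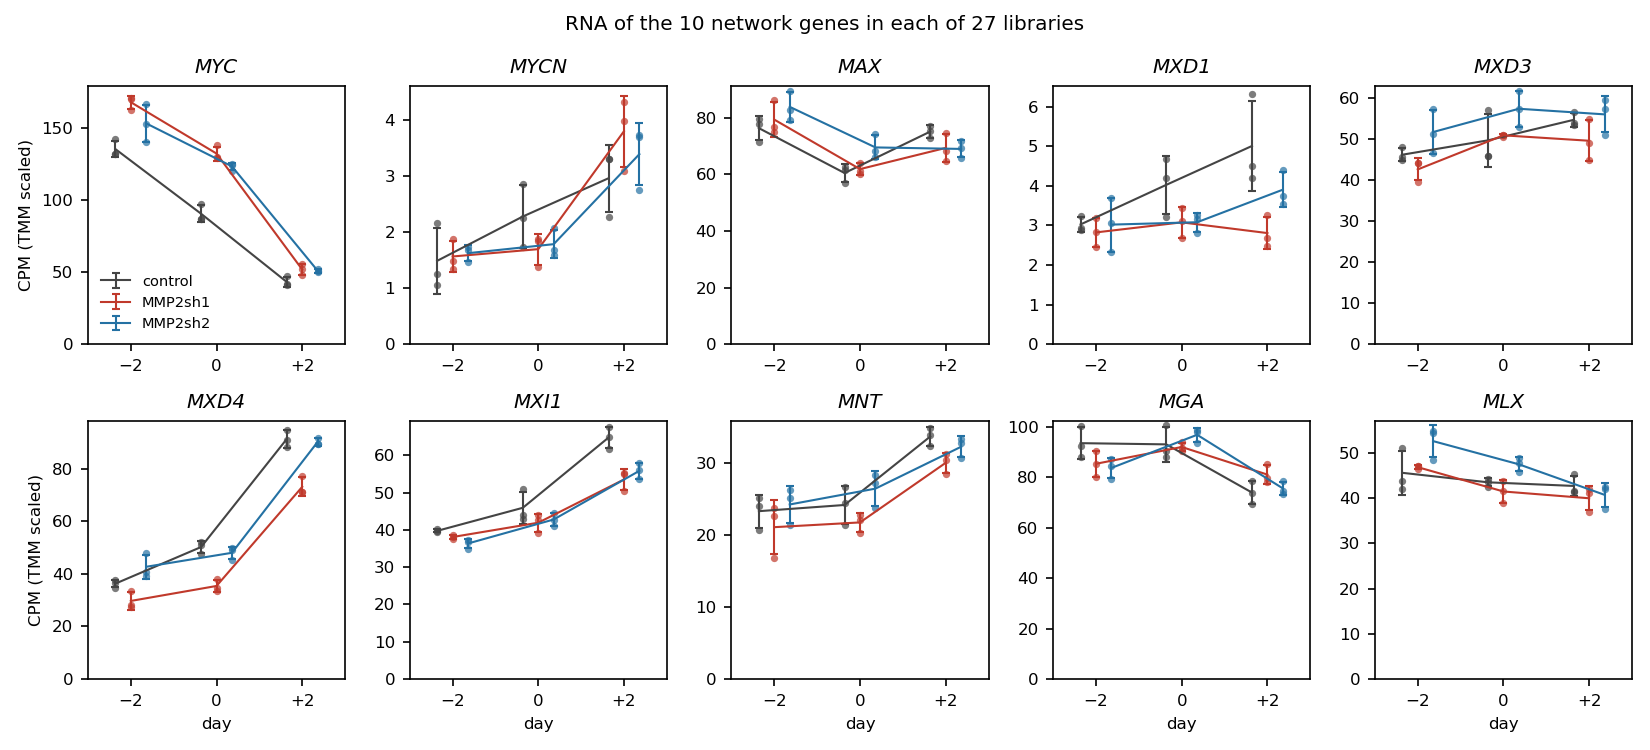
CPM (y axis, from 0) of each of the 10 members by day (x axis) in control, MMP2sh1 and MMP2sh2 cells, with points for single libraries and lines and bars for the mean ± SD of 3. MYC falls from day −2 to day +2 in each line while MXD4 and MXI1 rise, and MAX, MXD3 and MLX stay within a narrower range.

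The first comparison asked how the network changed as control cells grew from subconfluent to overconfluent. MYC RNA fell to 31.9% of its starting level while MXD4 RNA rose 2.49-fold, and MXI1, MNT, MXD1, MYCN and, by a smaller step, MXD3 rose as well. MGA fell, whereas MAX and MLX did not pass the test. In all, 8 of the 10 members were called, 6 higher and 2 lower, where 56.8% of 19099 genes were called, 28.1% higher and 28.6% lower. The 3 libraries of day −2 and of day +2 did not overlap for 8 members, and for 62% of all genes. The median log2 fold change of the members was 0.37 against 0.03 for all genes tested. Markers of other cell types moved in the same comparison: all 4 with enough reads to be tested, EPCAM, VWF, CDH1 and KRT5, were called lower, with a median of −1.26, and the list of 8 summed to 10.5 to 12.9 CPM at day −2 and 5.48 to 7.14 CPM at day +2. The EPCAM call was lost without replicate 3 of day −2 or replicate 2 of day +2. The part of these markers in the changes of the network was not tested.

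MYC, the transcription factor at the head of the network, lies at chr8:128747680-128755197 (GRCh37, plus strand, 3 exons in its canonical transcript). Its level in the 3 control libraries was 132, 142 and 132 CPM at day −2, 86.9, 87.1 and 97.4 at day 0, and 41.6, 47.0 and 40.9 at day +2. No library of one day reached the range of another, so the 3 stages were fully separated. On the log2 scale MYC changed by −0.58 ± 0.05 up to confluence (adjusted p = 1.26e-09, edgeR), by −1.06 ± 0.06 from day 0 to day +2 (adjusted p = 1.32e-14) and by −1.66 ± 0.06 over the whole expansion (adjusted p = 1.34e-18).

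MYCN, a MYC paralog best known from neuroblastoma and embryonic tissue, lies at chr2:16080672-16087129 (plus strand). It moved the other way, at 1.06, 1.25 and 2.16 CPM at day −2 and 2.28, 3.31 and 3.31 CPM at day +2. These groups did not overlap, although the highest subconfluent library came within reach of the lowest overconfluent one, and the log2 fold change was 1.00 ± 0.28 (adjusted p = 0.00373, edgeR). The antisense gene MYCNOS covers 3.56% of its exon bases, and the unstranded counting could not assign reads there to either.

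MAX, the obligate partner, lies at chr14:65472892-65569413 (minus strand). It was lowest at confluence, with 77.8, 79.7 and 71.5 CPM at day −2, 61.6, 57.0 and 62.7 at day 0, and 72.6, 77.2 and 75.5 at day +2. The confluent libraries were below all others, while those of day −2 and day +2 overlapped. MAX thus fell by 0.34 ± 0.06 on the log2 scale to day 0 (adjusted p = 2.91e-05, edgeR) and rose by 0.32 ± 0.06 after it (adjusted p = 3.17e-05), leaving a difference of −0.04 ± 0.06 over the expansion (adjusted p = 0.575). MAX shares 16.1% of its exon bases with other genes, FNTB among them.

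MXD4, a MAX partner that recruits SIN3 and opposes MYC, lies at chr4:2249159-2263836 (minus strand), and its promoter window with the E-box is given above. Its control libraries held 37.5, 34.7 and 36.7 CPM at day −2, 51.9, 47.7 and 51.0 at day 0, and 88.2, 90.9 and 94.8 at day +2. As for MYC, the 3 days were fully separated. MXD4 changed on the log2 scale by 0.47 ± 0.06 to day 0 (adjusted p = 1.06e-06, edgeR), 0.87 ± 0.06 from day 0 to day +2 (adjusted p = 1.18e-13) and 1.31 ± 0.06 overall (adjusted p = 1.82e-16).

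MXI1, the MXD family member also called MXD2, lies at chr10:111967363-112047123 (plus strand). It held 40.1, 39.4 and 39.7 CPM at day −2, 50.9, 42.8 and 44.1 at day 0, and 61.8, 64.99 and 67.5 at day +2. Each day lay above the one before it without overlap. MXI1 rose by 0.69 ± 0.06 on the log2 scale over the expansion (adjusted p = 1.77e-10, edgeR). Its earlier step of 0.21 ± 0.07 to day 0 (adjusted p = 0.0153) was not called when replicate 2 of control day −2 or replicate 1 of control day 0 was left out, with values of 0.13 to 0.26 over the 6 libraries left out in turn.

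MNT, a broadly expressed MAX partner that represses MYC target genes, lies at chr17:2287367-2304398 (minus strand). Its level was 20.8, 24.1 and 25.1 CPM at day −2, 26.6, 21.4 and 24.4 at day 0, and 34.8, 33.9 and 32.3 at day +2. The libraries of days −2 and 0 overlapped and those of day +2 were above both. MNT rose by 0.48 ± 0.08 on the log2 scale after confluence (adjusted p = 1.03e-05, edgeR) and by 0.52 ± 0.08 overall (adjusted p = 3.45e-06), and its difference from day −2 to day 0 was 0.06 ± 0.09 (adjusted p = 0.67).

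MXD1, a repressor induced as several cell types differentiate, lies at chr2:70124820-70170077 (plus strand), and MXD3, which is instead linked to S phase, at chr5:176728462-176739758 (minus strand). MXD1 held 2.94, 2.88 and 3.25 CPM at day −2 and 4.21, 4.49 and 6.32 at day +2, a log2 fold change of 0.72 ± 0.19 (adjusted p = 0.00251, edgeR). MXD3 held 45.0, 48.1 and 45.5 CPM at day −2 and 53.5, 53.9 and 56.7 at day +2, a log2 fold change of 0.23 ± 0.06 (adjusted p = 0.00203). Neither set of groups overlapped. Because 43.7% of the exon bases of MXD3 also belong to PRELID1 or RAB24, its counts are less certain than those of the other members.

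MGA, the scaffold of a MAX-containing Polycomb complex (PRC1.6) that silences germline genes, lies at chr15:41913332-42065279 (plus strand). It held 92.5, 88.0 and 100.4 CPM at day −2, 90.3, 100.9 and 88.2 at day 0, and 78.7, 74.0 and 69.3 at day +2. Days −2 and 0 overlapped and all 3 overconfluent libraries were lower, with a log2 fold change of −0.36 ± 0.06 overall (adjusted p = 1.18e-05, edgeR) and −0.33 ± 0.06 after day 0 (adjusted p = 3.47e-05). MLX, which pairs with the glucose-sensing Mondo proteins in place of MAX, lies at chr17:40719090-40725257 (plus strand). It ranged from 42.0 to 51.2 CPM at day −2 and from 41.3 to 45.3 at day +2, with overlapping groups and a log2 fold change of −0.11 ± 0.07 (adjusted p = 0.209).

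Split at confluence, the control expansion called 4 members from day −2 to day 0, 2 higher and 2 lower, where 35.5% of 19317 genes were called, and 6 from day 0 to day +2, 4 higher and 2 lower, where 41.4% of 19362 genes were called. The 2 steps share the day 0 libraries. MYC, MXD4, MXI1 and MAX were called in each step, MNT and MGA in the later step.

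The share of MYC in the RNA of MAX partners was computed from CPM per kb of exon as MYC over the sum of MYC, MYCN, MXD1, MXD3, MXD4, MXI1 and MNT. MGA, although part of a MAX-containing complex, and the MYC paralog MYCL were not in the sum. The value is thus a share among these chosen genes only. In control cells it was 46.3, 47.7 and 45.6% at day −2, 32.0, 33.8 and 33.8% at day 0, and 14.5, 15.7 and 13.4% at day +2. The share fell at each stage by far more than the spread of the 3 libraries, and it is a share of RNA and not of protein or of dimers. The ratio of MYC to MXD4 on the same scale averaged 4.20 ± 0.35 at day −2, 2.03 ± 0.14 at day 0 and 0.532 ± 0.048 at day +2 (SD, n = 3), so MYC RNA was the higher of the pair until confluence and the lower after it.

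**Figure D2:**
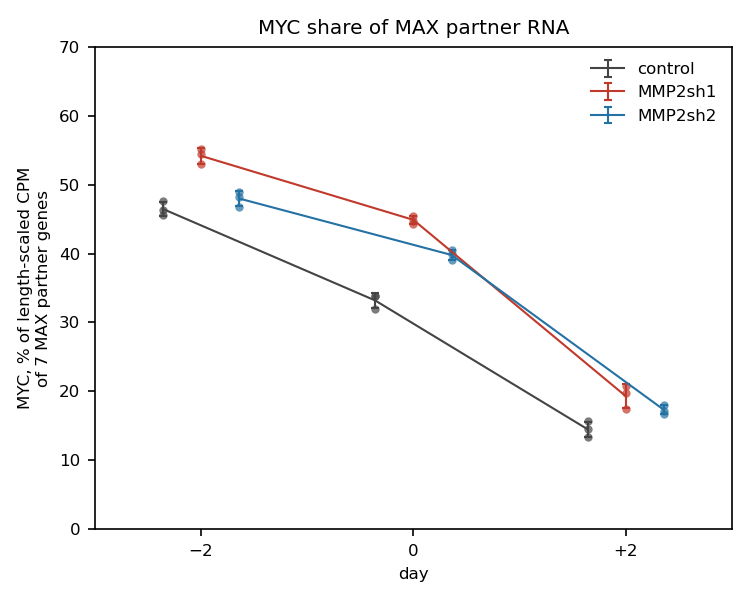
MYC as a percentage of the summed CPM per kb of 7 MAX partner genes (y axis, from 0) by day (x axis) in control, MMP2sh1 and MMP2sh2 cells, with points for libraries and bars for the SD of 3. The control mean drops from 46.5% to 14.5%, and the means of both shRNA lines lie above the control mean at each day.

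The same expansion was compared in the shRNA lines. MMP2sh1 cells called 8 members from day −2 to day +2, 5 higher and 3 lower, where 54.9% of 19080 genes were called, and MMP2sh2 cells called 7, 4 higher and 3 lower, where 54.7% of 19175 genes were called. MYC fell by 1.71 ± 0.07 on the log2 scale in MMP2sh1 and by 1.58 ± 0.07 in MMP2sh2 (adjusted p = 5.78e-16 and 3.38e-19, edgeR), from 170, 162 and 171 CPM to 47.9, 51.9 and 55.6 in the former and from 140.3, 153 and 166 to 50.6, 49.9 and 52.4 in the latter. MXD4 rose by 1.28 ± 0.08 and 1.09 ± 0.07, MYCN by 1.26 ± 0.25 and 1.07 ± 0.25, MXI1 by 0.47 ± 0.07 and 0.62 ± 0.07, and MNT by 0.49 ± 0.11 and 0.42 ± 0.09. These 5 genes were called in the same direction in all 3 lines. The share of all genes called alike in the 3 lines was not counted, so no weight is put on this number.

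MAX and MLX, not called in control cells over the whole expansion, were called lower in each shRNA line. MAX changed by −0.21 ± 0.07 in MMP2sh1 and −0.27 ± 0.07 in MMP2sh2, and MLX by −0.25 ± 0.07 and −0.36 ± 0.08. MXD3 was called in MMP2sh1 at 0.20 ± 0.08 (adjusted p = 0.0436, edgeR) and not in MMP2sh2 at 0.12 ± 0.08. MXD1 and MGA, called in control cells, were not called in MMP2sh1 or MMP2sh2. MXD1 changed by −0.03 ± 0.23 and 0.38 ± 0.21, and MGA by −0.09 ± 0.07 and −0.14 ± 0.07. With DESeq2, median-of-ratios scaling or all 27 libraries in one fit, MGA was called in MMP2sh2. In MMP2sh1 the calls of MAX, MLX and MXD3 each depended on single libraries: MAX was called in 3, MLX in 5 and MXD3 in 2 of the 6 fits that left out 1 library. MAX was lost without replicate 3 of day −2 or replicates 2 or 3 of day +2, MLX without replicate 2 of day +2, and MXD3 without replicates 2 or 3 of day −2 or replicates 1 or 2 of day +2, and with DESeq2.

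Whether a line responded differently to expansion was tested directly as an interaction. None of the 10 members was called for MMP2sh1, where 7.4% of 20548 genes were, or for MMP2sh2, where 4.98% of 20653 genes were, by edgeR. At an unadjusted p under 0.05 there were 3 members for MMP2sh1 (MXD1, MXI1 and MGA) and 4 for MMP2sh2 (MAX, MXD4, MGA and MLX). DESeq2 called 0 and 1. The shares of all genes at these looser settings are not given, so these counts carry no weight. The interaction was −0.04 ± 0.09 for MYC in MMP2sh1 and 0.08 ± 0.09 in MMP2sh2, and −0.03 ± 0.10 and −0.23 ± 0.09 for MXD4. It was largest for MXD1, at −0.74 ± 0.29 in MMP2sh1 (adjusted p = 0.133, edgeR) and −0.34 ± 0.28 in MMP2sh2 (adjusted p = 0.591). For MGA it was 0.27 ± 0.09 (adjusted p = 0.0722) and 0.21 ± 0.09 (adjusted p = 0.193). The differences between lines in which of MAX, MLX, MXD3, MXD1 and MGA were called over the expansion are therefore not shown to be differences in response.

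The next comparisons asked how each shRNA line differed from control at the same stage. The MMP2sh1 and MMP2sh2 comparisons of a day share its 3 control libraries and are given side by side. MYC was called higher than control in 5 of these 6 comparisons and was the only member called in more than 1 comparison of both lines. How many of all genes were called that often was not counted, so the recurrence is not shown to be particular to MYC. At day −2, MYC held 170, 162 and 171 CPM in MMP2sh1 and 140.3, 153 and 166 in MMP2sh2 against 132, 142 and 132 in control. The MMP2sh1 libraries were all above control, whereas the lowest MMP2sh2 library fell below the highest control library. The log2 difference was 0.31 ± 0.05 in MMP2sh1 (adjusted p = 0.00041, edgeR) and 0.16 ± 0.06 in MMP2sh2 (adjusted p = 0.079).

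At day 0, MYC held 129.9, 138 and 129 CPM in MMP2sh1 and 120.4, 125 and 125 in MMP2sh2 against 86.9, 87.1 and 97.4 in control. Every shRNA library was above every control library, and the log2 difference was 0.55 ± 0.05 in MMP2sh1 (adjusted p = 4.52e-10, edgeR) and 0.44 ± 0.05 in MMP2sh2 (adjusted p = 6.58e-08). At day +2, the levels were 47.9, 51.9 and 55.6 in MMP2sh1 and 50.6, 49.9 and 52.4 in MMP2sh2 against 41.6, 47.0 and 40.9 in control. The groups again did not overlap, with log2 differences of 0.26 ± 0.07 (adjusted p = 0.0123) and 0.25 ± 0.07 (adjusted p = 0.0219). The day +2 calls were weaker: each was lost without replicate 1 or 3 of control day +2, and also without replicate 3 of MMP2sh1 or replicate 1 of MMP2sh2, leaving 0.21 to 0.33 and 0.21 to 0.31.

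Between the hairpins themselves MYC was not called at any day, with log2 differences of MMP2sh2 minus MMP2sh1 of −0.14 ± 0.06 (adjusted p = 0.164, edgeR), −0.11 ± 0.04 (adjusted p = 0.0907) and −0.02 ± 0.07 (adjusted p = 0.928) at days −2, 0 and +2. The residual MMP2 RNA differed between these lines by 1.84, 1.41 and 1.52 on the log2 scale at those days, higher in MMP2sh2.

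MXD4 separated the hairpins. In MMP2sh1 its level was 27.4, 28.2 and 33.5 CPM at day −2, 33.5, 34.7 and 37.97 at day 0, and 77.3, 71.0 and 71.0 at day +2, below every control library of the same day. In MMP2sh2 it was 39.4, 40.8 and 47.9 at day −2, 49.7, 48.9 and 45.4 at day 0, and 91.8, 89.4 and 89.3 at day +2, above control at day −2 and overlapping it at days 0 and +2. The log2 difference from control in MMP2sh1 was −0.29 ± 0.08 (adjusted p = 0.0197, edgeR), −0.51 ± 0.07 (adjusted p = 5.1e-07) and −0.32 ± 0.06 (adjusted p = 0.000341) at the 3 days. In MMP2sh2 it was 0.21 ± 0.08 (adjusted p = 0.0675), −0.07 ± 0.06 (adjusted p = 0.546) and −0.01 ± 0.06 (adjusted p = 0.95). Tested directly, MXD4 was higher in MMP2sh2 than in MMP2sh1 by 0.51 ± 0.09, 0.44 ± 0.07 and 0.31 ± 0.06 (adjusted p = 0.000266, 6.9e-06 and 0.00158). The day −2 call against control held in 2 of the 6 fits that left out 1 library, and was lost without replicates 1 or 3 of control or replicates 1 or 2 of MMP2sh1, with values from −0.39 to −0.24.

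MXI1 was lower than control in each shRNA line at day +2, at 55.2, 50.4 and 55.0 CPM in MMP2sh1 and 56.0, 53.6 and 57.9 in MMP2sh2 against 61.8, 64.99 and 67.5. All 6 shRNA libraries lay below the control libraries, with log2 differences of −0.28 ± 0.07 (adjusted p = 0.00334, edgeR) and −0.21 ± 0.06 (adjusted p = 0.0414). The MMP2sh2 call held in 2 of the 6 fits with 1 library left out, failing without replicates 2 or 3 of control or replicates 1 or 2 of MMP2sh2, with values from −0.24 to −0.17, and it was lost with no filter on low counts and with all 27 libraries in one fit.

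MXD1 was lower in MMP2sh1 at day +2, at 2.48, 3.26 and 2.68 CPM against 4.21, 4.49 and 6.32 in control, a log2 difference of −0.84 ± 0.20 (adjusted p = 0.00382, edgeR). The groups did not overlap, but the call was lost without replicate 3 of control, at −0.63. In MMP2sh2 the level was 4.41, 3.55 and 3.75 CPM and the difference −0.36 ± 0.18 (adjusted p = 0.299), and the 2 hairpins differed by 0.48 ± 0.20 (adjusted p = 0.161), which did not pass. MAX was called in 1 of the 6 comparisons, at 0.20 ± 0.06 in MMP2sh2 at day 0 (adjusted p = 0.0211), and this was lost without replicate 2 of control or replicates 1 or 2 of MMP2sh2, with values from 0.15 to 0.23. MYCN, MXD3, MNT, MGA and MLX were not called against control at any day in MMP2sh1 or MMP2sh2, with log2 differences from −0.42 to 0.36 for the sparsely counted MYCN and from −0.18 to 0.20 for the others. With no filter on low counts MXD3 was called in MMP2sh2 at day 0, at 0.21 (adjusted p = 0.016, edgeR).

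Counted together, MMP2sh1 called 2 members at day −2, 2 at day 0 and 4 at day +2, where 11.6%, 16.8% and 14.8% of all genes were called. MMP2sh2 called 0, 2 and 2, where 11%, 12.9% and 6.32% were. For MMP2sh2 at day −2, 5 members had an unadjusted p under 0.05 and DESeq2 called 2, MYC and MXD4. The shares of all genes at these settings are not given, so no weight is put on these counts. Between the hairpins 2, 4 and 1 members were called at days −2, 0 and +2, all higher in MMP2sh2, where 10.7%, 18.5% and 7.86% of all genes were called and 5.69%, 9.62% and 3.27% were called higher.

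**Figure D3:**
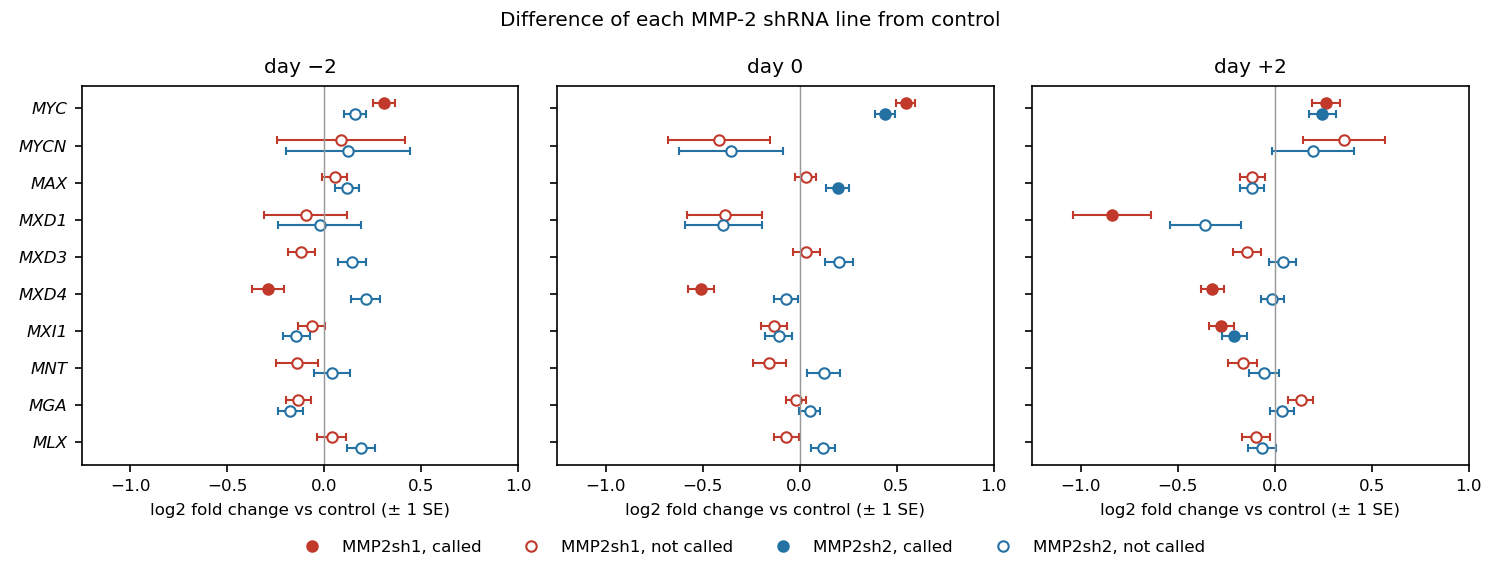
Log2 fold change against control (x axis, bars of 1 SE) of each member (y axis) at day −2, 0 and +2 in MMP2sh1 (red) and MMP2sh2 (blue), with filled points for genes called at an adjusted p under 0.05. MYC is to the right of 0 throughout, and MXD4 is at −0.29, −0.51 and −0.32 in MMP2sh1 and at 0.21, −0.07 and −0.01 in MMP2sh2.

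Expressed as a share of MAX partner RNA, MYC was 55.2, 53.0 and 54.4% in MMP2sh1 at day −2, 44.7, 45.5 and 44.3% at day 0, and 17.4, 19.8 and 20.8% at day +2. In MMP2sh2 it was 46.8, 49.0 and 48.2%, 39.9, 39.1 and 40.5%, and 16.7, 17.1 and 18%. At each day all MMP2sh1 libraries exceeded the control libraries, and at days 0 and +2 all MMP2sh2 libraries did. The gap was widest at confluence, where the means were 33.2 ± 1.0% in control, 44.9 ± 0.6% in MMP2sh1 and 39.8 ± 0.7% in MMP2sh2 (SD, n = 3).

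Genes known to be activated by MYC were then read from lists drawn up from general knowledge. All lists were chosen with earlier results of these data known, so their counts are a description and not an independent check. In control cells over the expansion, all 24 genes of the nucleolus and ribosome assembly were called lower, with a median log2 fold change of −0.73 against 0.03 for all genes, of which 28.6% were called lower. NOP16 and BYSL, which act in assembling the large and the small ribosomal subunit, fell by 1.17 ± 0.10 and 1.12 ± 0.07, and RRP12 and MYBBP1A by 0.91 ± 0.05 and 0.92 ± 0.06. Of 14 genes of nucleotide and polyamine synthesis 13 were called lower, with a median of −0.70, among them the spermidine synthase SRM at −1.31 ± 0.05, the transferrin receptor TFRC, listed here for iron uptake, at −1.20 ± 0.05, NME1 at −1.03 ± 0.06 and the CTP synthase CTPS1 at −0.84 ± 0.05. Of 13 tested genes of the cell cycle and translation 11 were called lower and 1 higher, with a median of −0.55, among them the translation factors EIF5A and EIF4G1 at −1.16 ± 0.05 and −0.84 ± 0.04, CDC25A, a phosphatase that activates CDKs, at −1.01 ± 0.06, and the lactate dehydrogenase LDHA, an enzyme of glycolysis, at −0.93 ± 0.05. TERT, the telomerase subunit often named as a MYC target, did not exceed 1.04 CPM in any library and was not tested in this comparison.

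The full E-box was present in 36%, 38.1% and 31.8% of the listed promoters of these 3 lists, against 7.26% of all promoters. A share this high was not particular to them. It was 38.1% of 21 promoters for the germline genes under PRC1.6 and 33.3% of 3 for the MondoA and MLX targets. It was 15.8% for the proliferation genes and 4.55% for the SIN3 corepressor. Of 14 general proliferation genes 10 were called lower and 1 higher, with a median of −0.31, including RRM2 at −0.51 ± 0.04, MKI67 at −0.49 ± 0.05, CCNB1 at −0.47 ± 0.05 and MCM5 at −0.38 ± 0.05. Their part in the change of MYC over the expansion was not tested.

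The nucleolar and proliferation lists were also counted in each step of the expansion, without a test of the difference between steps. From day −2 to day 0, 20 of 24 nucleolar genes were called lower and none higher, with a median of −0.34, while 6 of 14 proliferation genes were called higher and none lower, with a median of 0.00. From day 0 to day +2, 21 nucleolar and 13 proliferation genes were called lower and none higher, with medians of −0.35 and −0.26. Of all genes 16.4% were called higher and 19.1% lower in the earlier step, and 21.3% higher and 20.1% lower in the later one.

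At day 0, where MYC stood furthest above control, 15 of the 24 nucleolar genes were called higher and 1 lower in MMP2sh1, with a median of 0.18, and 11 were called higher and none lower in MMP2sh2, with a median of 0.16. Of all genes 8.26% and 7.07% were called higher and 8.58% and 5.81% lower in these comparisons, which share their control libraries. Genes of nucleotide and polyamine synthesis showed 9 and 4 of 14 called higher and none lower. Of those of the cell cycle and translation, 8 of 13 were called higher and 1 lower in MMP2sh1, and 3 of 13 higher and none lower in MMP2sh2. NOP16 was higher by 0.49 in MMP2sh1 and 0.37 in MMP2sh2, and NME1 by 0.34 and 0.24. The MMP2sh2 calls were lost for both genes without replicate 2 of MMP2sh2, and for NME1 also without replicates 1 or 2 of control. At day +2, where MYC was also called higher in each line, 1 nucleolar gene was called higher and 2 lower in MMP2sh1, and none was called in MMP2sh2, with medians of 0.03 and 0.04, where 7.68% of all genes were called higher and 7.11% lower in MMP2sh1 and 2.89% and 3.43% in MMP2sh2. At day −2, MMP2sh1 had 1 higher and 1 lower and MMP2sh2 2 higher and 6 lower, with medians of 0.13 and 0.03, where 5.42% of all genes were called higher and 6.14% lower in MMP2sh1 and 4.71% and 6.33% in MMP2sh2.

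**Figure D4:**
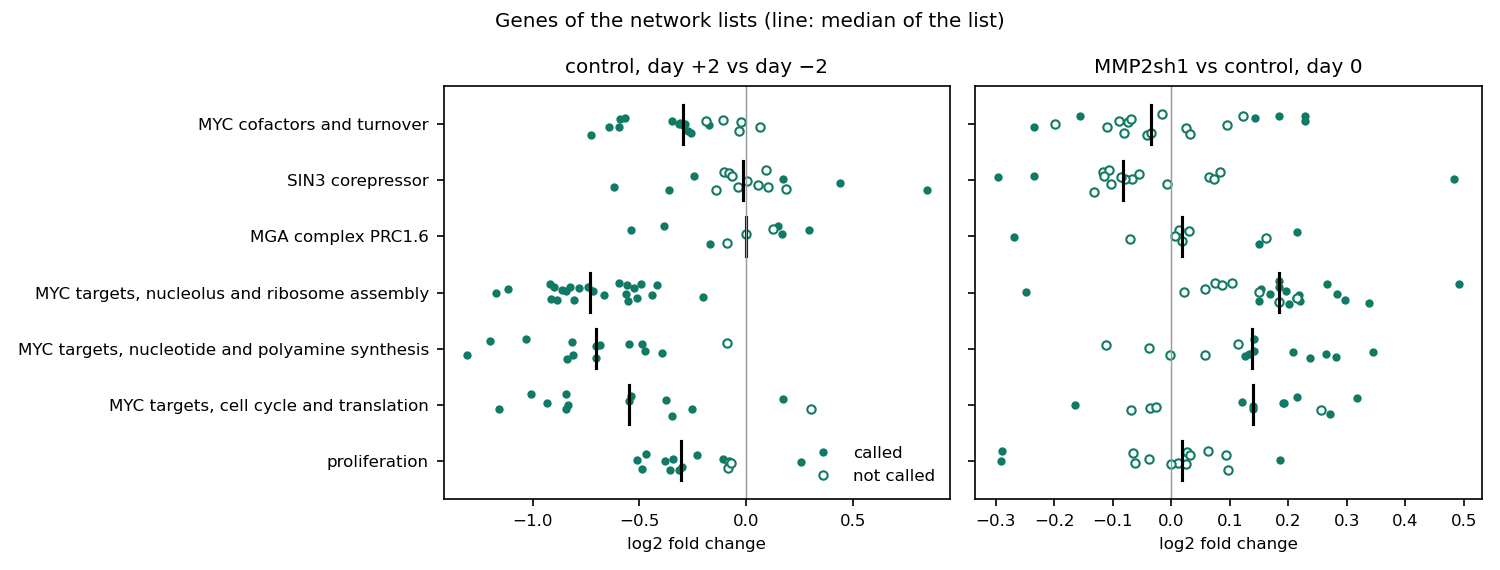
Log2 fold change (x axis) of single genes, by list (y axis), in control cells from day −2 to day +2 and in MMP2sh1 against control at day 0, with filled points for genes called and a line at the median of each list. The 3 lists of MYC targets have medians of −0.73, −0.70 and −0.55 over the expansion and of 0.18, 0.14 and 0.14 in MMP2sh1.

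Of 12 tested genes that MYC is known to repress, 6 were called higher and 3 lower in control cells over the expansion, with a median of 0.27, where 28.1% of all genes were called higher and 28.6% lower. The CDK inhibitor CDKN1C rose by 0.84 ± 0.09 on the log2 scale. CDKN1A, the p21 inhibitor, instead fell by 0.67 ± 0.05, from 194, 194 and 174 CPM to 119, 118 and 119.8, and the stress genes GADD45A and GADD45B fell by 0.78 ± 0.06 and 1.09 ± 0.06. In MMP2sh1 at day 0, 5 of 11 were called lower and none higher, with CDKN1A at −0.29, whereas in MMP2sh2 3 of 12 were called higher and 2 lower, with CDKN1A at 0.18, a call that was lost without replicate 2 of control or replicate 2 of MMP2sh2. Of all genes 8.26% were called higher and 8.58% lower in the former comparison, and 7.07% and 5.81% in the latter.

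Genes of proteins that work with the members were read in the same way, in a comparison where 28.1% of all genes were called higher and 28.6% lower. Of 19 cofactors and turnover factors of MYC, 14 were called lower over the control expansion and none higher, with a median of −0.30. SKP2, a ubiquitin ligase subunit that acts on MYC, changed by −0.73 ± 0.05, the chromatin ATPase RUVBL2 by −0.64 ± 0.06, AURKA, a kinase that stabilises MYCN, by −0.60 ± 0.05, and WDR5, which anchors MYC on chromatin, by −0.59 ± 0.05. The 16 genes of the SIN3 corepressor, through which MXD proteins and MNT act, divided into 3 higher and 3 lower with a median of −0.02, fewer in each direction than the share of all genes. SAP30 changed by −0.62 ± 0.10 and BRMS1 by −0.36 ± 0.06, and ARID4A and ARID4B by 0.85 ± 0.08 and 0.44 ± 0.07.

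Of the 9 genes of the MGA complex, 3 were called higher and 3 lower, with a median of 0.00, close to the share of all genes in each direction. TFDP1 changed by −0.54 ± 0.05 and the defining subunit PCGF6 by −0.39 ± 0.08, whereas YAF2 changed by 0.29 ± 0.08 and the ubiquitin ligase subunit RING1 by 0.17 ± 0.06, beside MGA itself at −0.36. The RING1 call was lost without replicate 3 of day +2 and with all 27 libraries in one fit. Of 14 germline genes that this complex is known to silence, 5 had enough reads to be tested, of which 3 were called higher, including STAG3 at 0.75 ± 0.19, and 1 lower, TDRKH at −0.59 ± 0.13.

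On the Mondo side of the network MLXIP, which encodes the MLX partner MondoA, fell by 0.70 ± 0.05 in control cells. TXNIP and ARRDC4, arrestin family genes that MondoA and MLX activate when glucose phosphates accumulate, rose. TXNIP held 2.53, 3.12 and 4.69 CPM at day −2, 20.02, 17.4 and 14.5 at day 0, and 41.4, 42.9 and 39.1 at day +2, a 12.2-fold change over the expansion (log2 3.60 ± 0.13, adjusted p = 2.34e-18, edgeR). The 3 stages did not overlap, while MLX itself stayed at 41.3 to 51.2 CPM. ARRDC4 rose by 1.29 ± 0.19. TXNIP was lower than control in each shRNA line at day 0, with log2 differences of −0.79 ± 0.11 in MMP2sh1 and −0.46 ± 0.11 in MMP2sh2, and at day +2, with −0.78 ± 0.08 and −0.58 ± 0.08. The MMP2sh2 call at day 0 was lost without replicate 1 of control. MLXIPL, which encodes the other MLX partner, ChREBP, did not exceed 0.441 CPM in any library.

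MYCL, the third MYC gene, held 9.998, 9.35 and 9.34 CPM in control cells at day 0, 6.69, 8.32 and 7.58 in MMP2sh1 and 4.64, 4.45 and 4.72 in MMP2sh2. Both shRNA lines lay below control without overlap, in the direction opposite to MYC. The log2 difference was −1.06 ± 0.14 in MMP2sh2 (adjusted p = 5.68e-07, edgeR) and kept its call in every fit with 1 library left out. In MMP2sh1 it was −0.35 ± 0.12 (adjusted p = 0.0441), a call that held in 1 of the 6 fits with 1 library left out and was lost with DESeq2, with no filter on low counts and with all 27 libraries in one fit. At the other days MYCL was not called against control. Over the expansion of control cells it changed by 0.34 ± 0.14 (adjusted p = 0.0398), a call lost without replicate 2 of day −2 or replicates 1 or 2 of day +2, and with DESeq2 or no filter on low counts.

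Likeness of pattern was measured by Pearson's correlation of log2 CPM over the 9 group means among 15076 genes with at least 1 CPM on average. These points share libraries and lines, and the values are a description. The 3 genes most like MYC were RAB11FIP1 (r = 0.998), MPP7 (r = 0.996) and FAM189B (r = 0.994), and those most like MXD4 were TEAD2 (r = 0.997), DOK6 (r = 0.994) and PC (r = 0.992). Among the members, MXI1 and MXD4 ran most nearly opposite to MYC, with r = −0.98 and −0.96, followed by MYCN at −0.95 and MNT at −0.93, while MAX had r = 0.24. Such values were not particular to the network. Ranked from the most to the least like MYC among the 15076 genes, MXI1 stood at 14916, MXD4 at 14675, MYCN at 14430 and MNT at 14018. Many genes outside the network thus ran more nearly opposite to MYC.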

How the data were processed

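Poly(A) RNA libraries (NEBNext Ultra II) of U2OS cells were sequenced for the authors by Novogene Corporation, per the paper. The authors' deposited files hold raw counts per gene symbol. Per the labels, reads were trimmed with Trim Galore 0.6.0, aligned to hg19 with STAR 2.7.3a and counted with HTSeq 2.0.0. Per the paper, counting was over exons in union mode, without strand and with a minimum mapping quality of 10. The 5 summary lines (16.8 to 19.1% of reads; 6.95 to 7.83% ambiguous) were left out. Gene totals were 33580129 to 59374327 per library. Each comparison was fitted on its own libraries (6, or 12 for an interaction) with edgeR 4.0.16 in R 4.3.3, using TMM scaling, filterByExpr (minimum count 10, minimum total 15), the quasi-likelihood F test and Benjamini-Hochberg adjustment over all genes tested, at 0.05. Standard errors are the absolute log2 fold change over the square root of F.

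Members and lists were chosen with earlier results of these data known. Named were all 10 members, MMP2, and from each list up to 4 genes with the largest change among those called in control day +2 against day −2 at 1 CPM or more on average, all genes of lists of 3 or fewer, TERT and CDKN1A. Exon lengths, positions and overlaps came from GENCODE v44 lifted to GRCh37, the build of the files, and promoters from RefSeq on GRCh38.p14, where no coordinates were converted. Alternatives were DESeq2 1.42.0, median-of-ratios scaling, 2 other filters, all 27 libraries in one fit, the replicate number as a block, and leaving out each library. For an interaction, all libraries of 1 replicate number were left out instead. On simulated counts for control day +2 against day −2 with 200 genes changed 2-fold among 18488, edgeR recovered 181 with 6 false calls. For the MMP2sh1 interaction, with 200 changed 2-fold among 19779, it recovered 165 with 11 false calls. Smaller changes, such as most of those between shRNA lines and control, were not simulated.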

Additional observations from a re-analysis of the deposited data

Results flagged for a closer look

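Differences between the hairpin lines passed a direct test for 7 member and day pairs, as log2 differences of MMP2sh2 minus MMP2sh1 (edgeR, adjusted over all genes tested). MXD4 differed at all 3 days, by 0.51 at day −2, 0.44 at day 0 and 0.31 at day +2, and held in every fit with 1 library left out. MXD3 differed by 0.27 at day −2 (adjusted p = 0.0314), MNT by 0.28 at day 0 (adjusted p = 0.0138), MLX by 0.19 at day 0 (adjusted p = 0.0346) and MAX by 0.16 at day 0 (adjusted p = 0.0389). With 1 library left out these were called in 1 of 6 fits for MXD3, 3 for MNT and 2 each for MLX and MAX, and MLX and MAX were not called with all 27 libraries in one fit. All 7 were higher in MMP2sh2, in which MMP2 RNA was also higher than in MMP2sh1; the part of the remaining MMP2 in them was not tested.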

How the results depend on the processing

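Over the expansions, the number of members called stayed within 1.5 times of its value under DESeq2, median-of-ratios scaling, both other filters and the fit of all 27 libraries, and no printed log2 fold change of a member or listed gene changed sign under these. The counts that moved by more belonged to comparisons with few calls. For MMP2sh2 against control, DESeq2 gave 2 at day −2, the fit of all 27 libraries 1 at day −2 and 1 at day +2, and no filter on low counts 1 at day +2. For MMP2sh2 against MMP2sh1 at day 0, all 27 libraries in one fit gave 2. The interaction with day gave 1 for MMP2sh1 in the fit of all 27 libraries (MGA) and 1 for MMP2sh2 with DESeq2 (MAX). The cause of these moves was not tested.

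With 1 library left out, the members called ranged from 5 to 8 for the expansion of MMP2sh1, where the lowest came without replicate 2 of day +2. Against control at days −2, 0 and +2 they were 1 to 2, 2 throughout and 2 to 5 for MMP2sh1, and 0 to 2, 1 to 3 and 0 to 2 for MMP2sh2. Between the hairpins they ranged from 1 to 2, 1 to 3 and 1 to 2. For the interaction, each of 3 fits left out all libraries of 1 replicate number, and the members called ranged from 0 to 1 for MMP2sh1. The sign of the log2 difference turned for values near 0. Without 1 library these were MXD1 over the MMP2sh1 expansion (−0.16 to 0.065) and MNT from control day −2 to day 0 (−0.028 to 0.14). They also included MXD4 in MMP2sh2 against control at day +2 (−0.039 to 0.019) and MYC between the hairpins at day +2 (−0.07 to 0.036). Without 1 replicate number they were the MMP2sh1 interaction of MYC (−0.11 to 0.023) and MXD4 (−0.16 to 0.11).

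The replicate numbers are not stated to mark shared days, so the main fits did not pair the libraries by number. The deviations of libraries with the same number correlated at −0.081 to 0.149 in the comparisons, which cannot show whether they shared a day. With the replicate number as a block, 1 member, MYC, was called for MMP2sh2 against control at day +2, where MXI1 lost its call (adjusted p = 0.0596, edgeR), and 2 for MMP2sh2 against MMP2sh1 at day +2, and no other count of members moved by over 1.5 times.

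The MYC share of MAX partner RNA depended on which lengths and genes entered it. Without MXD3, which shares exons with other genes, it was 58.5, 43.4 and 19.1% in control at days −2, 0 and +2, 65.9, 57.7 and 25.4% in MMP2sh1, and 60.7, 52.3 and 22.9% in MMP2sh2. With the longest transcript as length it was 44.1 and 31.3% in control at days −2 and 0, 51.7 and 42.3% in MMP2sh1, and 45.4, 37.4 and 16.3% in MMP2sh2 at the 3 days. The fall over the days and the order of the 3 lines at day 0 were kept in both. Depth limited MYCN and MXD1, the members with the fewest reads.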
